A study of Capra hircus with 9 samples.

Results

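The let-7 family passenger strands were 8 mature miRNAs, chi-let-7a-3p, chi-let-7b-3p, chi-let-7c-3p, chi-let-7d-3p, chi-let-7e-3p, chi-let-7f-3p, chi-let-7g-3p and chi-let-7i-3p, out of 1359 miRNAs in the deposited table. They were chosen by name, as every row that started with chi-let-7 and ended in -3p, and each had a row for the opposite arm, -5p, of the same hairpin. Small RNA was sequenced from the mammary glands of 9 healthy Laoshan dairy goats in the third parity, with an average age of 4 years, that received no treatment. Late lactation (LL) was sampled 240 d postpartum, the dry period (DP) 300 d postpartum and late gestation (LG) 140 d after mating, with 3 goats and 3 libraries per stage. Each library came from gland tissue, which mixes epithelium, stroma, vessels and blood. Fewer cells of a type and less RNA per cell therefore cannot be told apart.

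let-7 was among the first miRNAs to be found and is known for promoting differentiation and restraining proliferation. Its hairpin precursor is cut by Drosha and Dicer into a short duplex of a 5p and a 3p strand. The strand that is kept in an Argonaute protein is the guide, which for let-7 is the 5p strand and silences mRNAs such as those of the RAS and HMGA2 genes, while the passenger strand, 3p, is mostly degraded. Both strands are cut from the same precursor, so the number of 5p reads per 3p read within a library (the 5p to 3p ratio) describes how unequally the arms of a hairpin were recovered. The LIN28 proteins, which block the maturation of let-7, act before the strands are separated.

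The libraries held 13672653 (DP replicate 1) to 34378995 (LG replicate 3) counted reads, and 3 reads equalled a level of 0.0873 to 0.219 CPM (counts scaled to a common library total). chi-miR-148a-3p alone took 48.4% to 59.4% of the reads in LL, 8.81% to 10.8% in DP and 39.4% to 44.6% in LG. Levels of any other miRNA are therefore sensitive to how libraries are scaled, whereas the 5p to 3p ratio within a library is not. DP replicate 1 stood apart for these hairpins. It had the highest share of reads on the let-7 5p arms, 30.0%, against 17.8% and 18.1% in the other DP libraries.

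In the goat assembly ARS1.2 (RefSeq annotation), a hairpin gene was found for 8 of 8 members. The let-7a hairpin lies on chr5:115353166-115353271 and the let-7b hairpin on chr5:115353949-115354045, with 677 bases between them. The let-7f hairpin (chr8:85207848-85207957) and the let-7d hairpin (chr8:85210061-85210165) are likewise neighbours, 2103 bases apart. The let-7c hairpin is at chr1:19042327-19042434, inside a long non-coding RNA gene and 644 bases from the miR-99a hairpin. The let-7e hairpin (chr18:58705096-58705204) is 85 bases from miR-99b, let-7g (chr22:48724027-48724133) lies within WDR82, a gene for a chromatin protein, and let-7i (chr5:50277066-50277173) had no other annotated miRNA within 10000 bases.

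Summed over the 8 members, the 3p strands gave 3128 to 9903 reads per library, or 183 to 288 CPM of the library total. The 5p strands of the same hairpins gave 7.93% to 30.0% of all reads. chi-let-7a-3p and chi-let-7d-3p together held 70.8% to 80.2% of the 3p reads. chi-let-7a-3p was the first, chi-let-7d-3p the second, chi-let-7f-3p the fourth and chi-let-7g-3p the last among the 3p strands in each of the 9 libraries. Between them, chi-let-7b-3p was the third in 8 libraries, and chi-let-7e-3p had more reads than chi-let-7c-3p in all 9. chi-let-7i-3p stood above both, between them or below both, depending on the library. In scaled levels chi-let-7e-3p lay wholly above chi-let-7i-3p in DP and in LG, while in LL the ranges of these neighbours overlapped.

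The order of the 5p strands was another one. chi-let-7i-5p, chi-let-7f-5p and chi-let-7g-5p filled the top 3 ranks of the 5p arms in each library, while their 3p strands lay at ranks 5 to 7, 4 and 8. chi-let-7d-5p was the lowest 5p arm in each library although chi-let-7d-3p was the second highest 3p arm.

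chi-let-7a-3p, the most abundant passenger strand, had 1973, 2927 and 2808 reads in LL, 2351, 1931 and 2665 in DP and 3409, 3190 and 4280 in LG. After scaling by TMM (edgeR's trimmed mean of M values) its level was 167 ± 23.2 CPM in LL, 118 ± 29.4 in DP and 113 ± 14.8 in LG (SD, n = 3 goats in this and the following levels). LL lay above both other stages in every library, and DP and LG overlapped.

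chi-let-7d-3p had 405, 672 and 851 reads in LL, 642, 1467 and 1009 in DP and 1814, 1495 and 3458 in LG. Its level was 40.7 ± 7.76 CPM in LL, 50.6 ± 14.7 in DP and 66.5 ± 10.4 in LG. Every LG library was above every LL library, and DP overlapped with both.

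chi-let-7b-3p had 361, 533 and 659 reads in LL, 188, 584 and 546 in DP and 550, 533 and 950 in LG, which gave 33.0 ± 4.08, 20.8 ± 7.95 and 20.5 ± 1.42 CPM. chi-let-7f-3p had 221, 260 and 368 reads in LL, 198, 350 and 308 in DP and 447, 317 and 663 in LG, which gave 18.1 ± 1.51, 14.0 ± 1.89 and 14.3 ± 1.54 CPM. In TMM-scaled levels LL was above DP and LG in every library for both, as it was for chi-let-7a-3p.

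chi-let-7e-3p had 56, 73 and 104 reads in LL, 446, 261 and 239 in DP and 159, 121 and 244 in LG. Its scaled level was 4.94 ± 0.618 CPM in LL, 16.8 ± 9.72 in DP and 5.25 ± 0.413 in LG. The DP libraries, at 28.0, 12.0 and 10.4 CPM, were above all LL and LG libraries, and DP replicate 1 was the highest by far.

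The remaining strands were rare. chi-let-7i-3p was at 6.43, 5.28 and 5.40 CPM in LL, 2.39, 3.12 and 3.40 in DP and 2.78, 3.00 and 3.19 in LG, with means of 5.71 ± 0.634, 2.97 ± 0.525 and 2.99 ± 0.208 CPM, and LL was above the other stages in every library. Such a separation of LL from both other stages was thus seen for 4 of 8 members, against 10.5% of all 696 miRNAs tested, but it rests on the scaling. By library size alone it was seen for 0 of 8 members and 3.16% of all miRNAs. With that scaling every LL library of chi-let-7i-3p was still above every DP library, but not above every LG library. Such a separation of LL from DP was seen for 1 of 8 members and 12.5% of all miRNAs. chi-let-7c-3p had 23, 67 and 75 reads in LL, 52, 130 and 109 in DP and 136, 97 and 123 in LG, or 3.43 ± 1.42, 4.66 ± 1.36 and 3.76 ± 0.941 CPM, with all stages overlapping. chi-let-7g-3p had 7, 14 and 11 reads in LL, 5, 6 and 18 in DP and 20, 12 and 44 in LG, or 0.689 ± 0.205, 0.458 ± 0.284 and 0.719 ± 0.263 CPM. Counting error alone is large for chi-let-7g-3p, since 5 reads have an exact 95% Poisson interval of 1.62 to 11.7 reads.

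**Figure D1:**
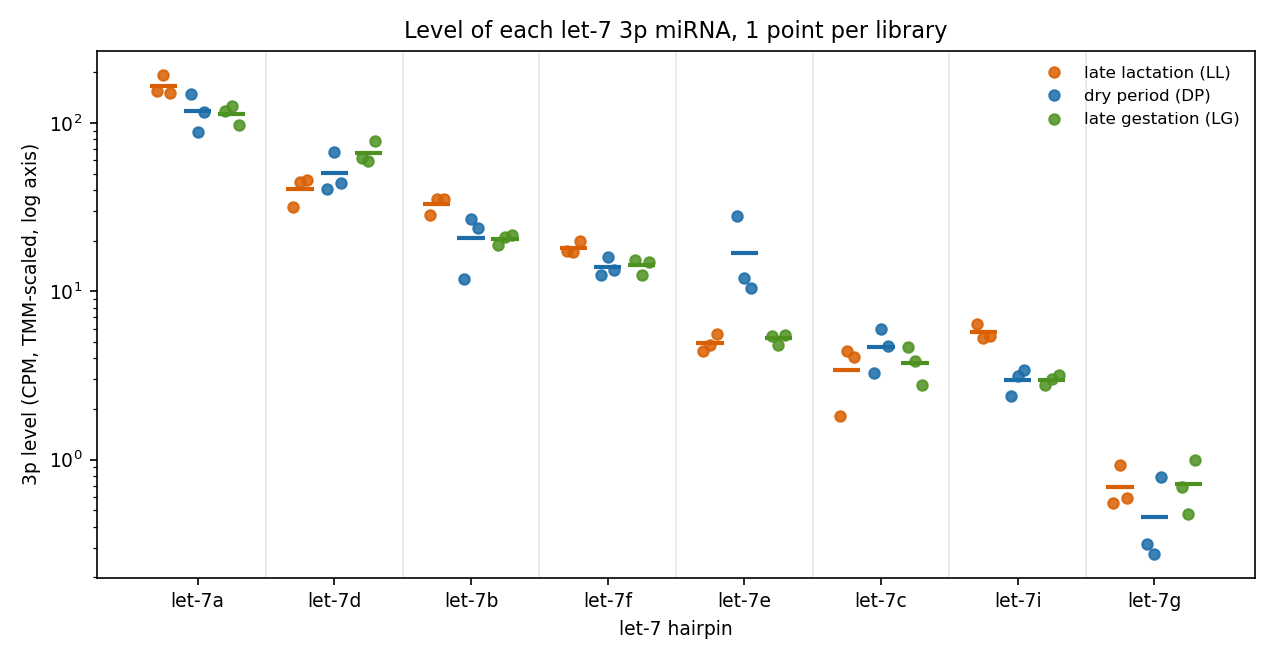
Level of each let-7 3p strand (TMM-scaled CPM, log scale) in the 9 libraries, with points for single goats, bars for the mean and colours for LL, DP and LG. chi-let-7e-3p stands out with the DP libraries at 28.0, 12.0 and 10.4 CPM above all LL and LG libraries. With this scaling every LL library lies above all DP and LG libraries for chi-let-7a-3p, chi-let-7b-3p, chi-let-7f-3p and chi-let-7i-3p. This full separation of LL from both other stages is lost for each of them when libraries are scaled by size alone.

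The arms were recovered very unequally, and by amounts that differed between hairpins. Over the 9 libraries the median number of 5p reads per 3p read was 7.90 for let-7d, 95.6 for let-7a, 101 for let-7e, 282 for let-7b, 1098 for let-7c, 2005 for let-7f, 8962 for let-7i and 41800 for let-7g. let-7d had the lowest, let-7b the fourth, let-7i the seventh and let-7g the highest ratio in each of the 9 libraries. The neighbours let-7a and let-7e changed places between libraries, and so did let-7c and let-7f.

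let-7d kept the largest passenger share. Its 3p strand made up 11.6% ± 0.725 of the reads of the hairpin in LL, 7.27% ± 1.11 in DP and 13.8% ± 1.85 in LG (SD, n = 3). The ratio was 7.95, 7.90 and 7.02 in LL, 15.5, 11.2 and 12.3 in DP and 7.08, 6.59 and 5.29 in LG. Every DP library was above every LL and LG library.

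The let-7a ratio was 57.8, 61.1 and 69.4 in LL, 191, 291 and 166 in DP and 95.6, 88.3 and 110 in LG. The let-7b ratio was 194, 177 and 189 in LL, 1690, 595 and 436 in DP and 306, 282 and 274 in LG. For both hairpins of this chromosome 5 pair the stages did not overlap and stood in the order LL, LG, DP. The same held for let-7f, with 1400, 1656 and 1263 in LL, 4504, 2649 and 3102 in DP and 2005, 2337 and 1720 in LG. Of all 129 hairpins, 19.4% had every DP ratio above all LL and LG ratios. Every LL ratio was below every LG ratio in 17.1% of them.

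The let-7i ratio was 7820, 8769 and 6372 in LL, 38156, 19842 and 18273 in DP and 9771, 8962 and 5985 in LG. The let-7c ratio was 1098, 594 and 775 in LL, 4557, 1679 and 1331 in DP and 768, 859 and 1236 in LG. For both, DP was above LL and LG in every library, and LL and LG overlapped. DP replicate 1 had the highest value of the 9 libraries for let-7b, let-7c, let-7d, let-7f, let-7g and let-7i, and the lowest for let-7e.

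The let-7g ratio was 44760, 28754 and 41330 in LL, 145597, 132546 and 41800 in DP and 34157, 46347 and 18442 in LG. DP replicate 3 lay within the range of the other stages. The let-7e ratio was 109, 100 and 111 in LL, 51.2, 106 and 121 in DP and 95.3, 101 and 89.6 in LG. It varied 2.37-fold over the 9 libraries, against 2.94-fold for let-7d and 9.57-fold for let-7b, and its DP values spanned those of the other stages. Without DP replicate 1 these spreads were 1.35-fold for let-7e, 2.32-fold for let-7d and 3.37-fold for let-7b.

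**Figure D2:**
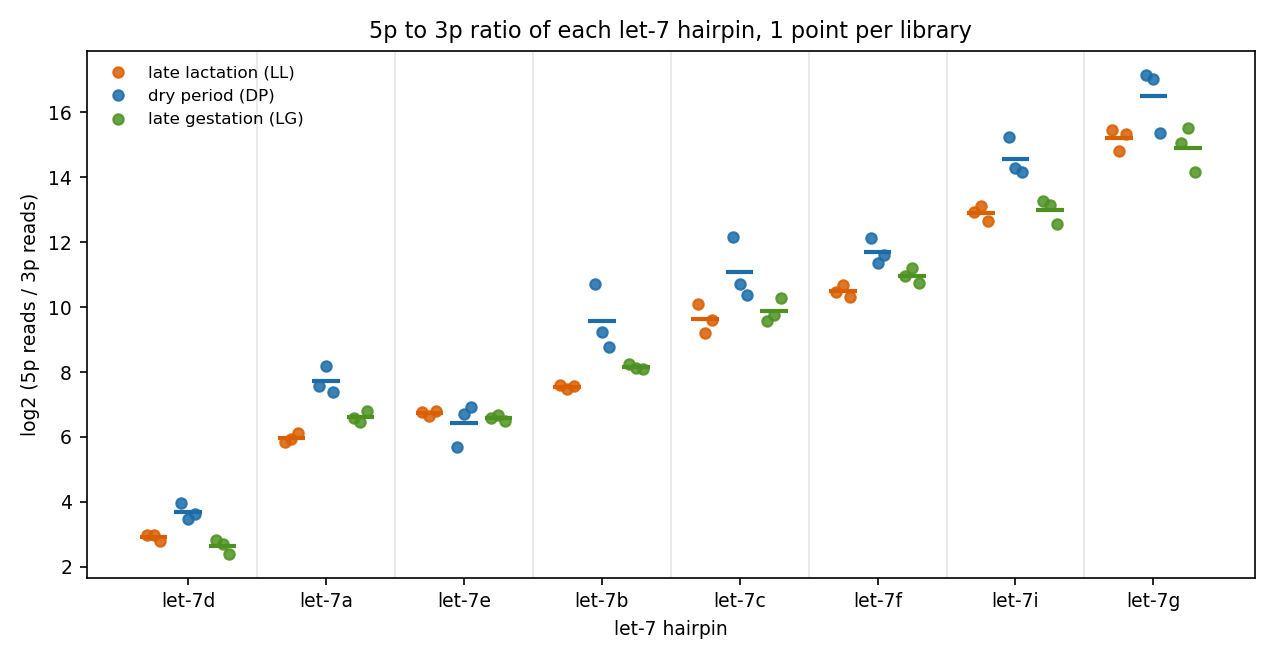
Log2 of the 5p reads per 3p read of each let-7 hairpin in the 9 libraries, with points for single goats, bars for the mean and colours for LL, DP and LG. DP is above LL and LG in every library for let-7a, let-7b, let-7c, let-7d, let-7f and let-7i, and overlaps with them for let-7e and let-7g.

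To ask whether the passenger strands changed between the dry period and late gestation, the counts of the 696 miRNAs that passed a filter on low levels were fitted with the quasi-likelihood method of edgeR, p values were adjusted by Benjamini-Hochberg, and a miRNA was called at an adjusted p below 0.05 and a log2 fold change beyond 1. In DP vs. LG, 1 of 8 passenger strands was called, against 31.5% of all miRNAs tested (21.6% higher and 9.91% lower in DP). The 8 strands had a median log2 fold change of 0.0084, and all miRNAs one of 0.18. With the other scalings the median of the 8 was -0.30 to -0.14 and that of all miRNAs -0.13 to 0.034. chi-let-7e-3p was higher in DP by 1.67 on the log2 scale (SE 0.39, edgeR adjusted p = 0.00769). Without DP replicate 1 the difference was 0.81 (adjusted p = 0.0264), under the fold limit, and without LG replicate 3 it was 1.36 (adjusted p = 0.0587). The other members had log2 fold changes of -0.64 (chi-let-7g-3p) to 0.31 (chi-let-7c-3p), with adjusted p values of 0.334 or above. With each library left out in turn, chi-let-7g-3p was at -1.56 to -0.36. It was called lower in DP without DP replicate 3 (-1.56, edgeR adjusted p = 0.0468).

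In the same libraries 5 of 8 guide strands were called higher in DP than in LG, against 21.6% of all miRNAs, and 8 of 8 were higher at an edgeR adjusted p below 0.05 with no limit on the fold change, against 23.7% of all miRNAs. They had log2 fold changes of 0.63 (chi-let-7d-5p) to 1.60 (chi-let-7c-5p) and a median of 1.27. chi-let-7e was the hairpin for which both arms were called higher, by 1.40 for 5p and 1.67 for 3p.

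The 5p to 3p ratio was then compared within libraries by an edgeR quasi-likelihood fit over the 129 hairpins with both arms measured, in which each library was a term of its own and the change of the arm difference between stages was tested. In DP vs. LG, 6 of 8 let-7 hairpins were called with a higher ratio in DP and none with a lower one (adjusted p below 0.05), against 27.9% of all hairpins called, 19.4% with a higher and 8.53% with a lower ratio. let-7i had 2.94 times as many 5p reads per 3p read in DP (log2 change 1.56, 95% interval 0.84 to 2.28, adjusted p = 0.00819 by edgeR). let-7d had 2.05 times as many (log2 change 1.03, interval 0.54 to 1.53, edgeR adjusted p = 0.00819). let-7a had 2.15 times as many (SE of the log2 change 0.26, interval 0.53 to 1.67, edgeR adjusted p = 0.0101).

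let-7b, let-7c and let-7g were called with less margin. Their log2 changes were 1.38 (interval 0.54 to 2.22), 1.17 (0.30 to 2.04) and 1.48 (0.42 to 2.54), with edgeR adjusted p values of 0.0278, 0.0442 and 0.0442. Without DP replicate 1 the change was 0.83 for let-7b (edgeR adjusted p = 0.0145) and 0.68 for let-7c (adjusted p = 0.102), and let-7g was no longer called (adjusted p = 0.101). The let-7c call was lost when DP replicate 1 or any LL or LG library was left out and with limma (adjusted p = 0.0542), and the let-7g call without any LL library, DP replicate 1 or 2 or LG replicate 1 or 3, and with DESeq2 (adjusted p = 0.602). let-7f, at 0.73 (interval 0.14 to 1.32, edgeR adjusted p = 0.0649), was not called. let-7e was at -0.13 with an interval of -0.77 to 0.51 (edgeR adjusted p = 0.761), so a change of its ratio beyond 1 in either direction lay outside the interval, and without DP replicate 1 it was at 0.25. The count of 6 fell to 2, 3 and 3 when LG replicate 1, 2 or 3 was left out, and to 4 without DP replicate 1 or any of the LL libraries, which are not part of this comparison but share its estimate of the spread. A fit of the DP and LG libraries alone called 3. The let-7d and let-7i calls were kept with each library left out in turn, the let-7a call was lost without LG replicate 1 or 2 (edgeR adjusted p = 0.0533 and 0.0517), and the let-7b call without any of the LG libraries.

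In DP vs. LL, which shares its DP libraries with the preceding comparison, 1 of 8 passenger strands was called, against 26.7% of all miRNAs (15.1% higher and 11.6% lower in DP). This was again chi-let-7e-3p, higher in DP by 1.76 on the log2 scale (SE 0.40, edgeR adjusted p = 0.00792), and it was called with each library left out in turn, at 1.13 without DP replicate 1. chi-let-7i-3p was at -0.94 (SE 0.30, edgeR adjusted p = 0.0385), just under the fold limit of 1. With each library left out in turn its adjusted p was 0.0315 to 0.122, and below 0.05 in 2 of 9 cases, and by library size alone it was at -0.58 (adjusted p = 0.190). The rest did not pass the test, with values of -0.67 for chi-let-7b-3p, -0.56 for chi-let-7g-3p, -0.50 for chi-let-7a-3p, -0.37 for chi-let-7f-3p, 0.31 for chi-let-7d-3p and 0.44 for chi-let-7c-3p. The median was -0.44 over the 8 passenger strands and 0.12 over all miRNAs, and by library size alone these were -0.071 and 0.49. The guide strands had a median of 1.14, with 5 of 8 called higher, against 15.1% of all miRNAs.

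In DP vs. LL the ratio of 6 of 8 let-7 hairpins was called higher in DP and 0 were called lower, against 24.0% of all hairpins called, 16.3% with a higher and 7.75% with a lower ratio. let-7b had a log2 change of 2.00 (95% interval 1.16 to 2.84, edgeR adjusted p = 0.00572), and of 1.45 without DP replicate 1, where let-7a was at 1.81. let-7a had 3.35 times as many 5p reads per 3p read in DP (log2 change 1.74, interval 1.17 to 2.32, edgeR adjusted p = 0.000946), and let-7i 3.11 times as many (log2 change 1.64, interval 0.92 to 2.36, edgeR adjusted p = 0.00664). let-7c, let-7f and let-7d were also called, at 1.44, 1.22 and 0.76 (edgeR adjusted p = 0.0277, 0.00931 and 0.0293). let-7g was at 1.14 with an interval of -0.018 to 2.30 (edgeR adjusted p = 0.134), and let-7e at -0.30 with an interval of -0.96 to 0.36 (edgeR adjusted p = 0.428), which was 0.083 without DP replicate 1. The let-7d call was lost without any of the LL libraries or without DP replicate 1 (0.62, edgeR adjusted p = 0.0524), and the let-7c call without LL replicate 2 or 3. The other called hairpins kept their call with each library left out in turn. A fit of the DP and LL libraries alone called 4 hairpins, without let-7c and let-7d (edgeR adjusted p = 0.0744 and 0.0747).

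In LL vs. LG, 0 of 8 passenger strands were called by edgeR, against 12.8% of all miRNAs (8.91% higher and 3.88% lower in LL), with 2 of 8 at an unadjusted p below 0.05 and 0 called by DESeq2 or limma. chi-let-7i-3p was at 0.93 (edgeR adjusted p = 0.0568) and chi-let-7d-3p at -0.71 (edgeR adjusted p = 0.122). chi-let-7d-3p was the strand called lower in LL by library size alone (-1.29, adjusted p = 0.0178) and with no filter (-1.02, adjusted p = 0.0474). It had an adjusted p below 0.05 but stayed under the fold limit with DESeq2 (-0.89, adjusted p = 0.00997) and in a fit of LL and LG alone (-0.94, adjusted p = 0.00936). No let-7 hairpin, 0 of the 129 hairpins, had a called change of the ratio in the edgeR fit of all 9 libraries, although 19 of the 129 and 1 let-7 hairpin, let-7a, had an unadjusted p below 0.05. limma called 0 hairpins and DESeq2 called 1, which was not of the let-7 family. let-7a was at -0.64 (edgeR adjusted p = 0.291). An edgeR fit of the LL and LG libraries alone, in which the spread is estimated without DP, called 16 of the 129 hairpins, among them let-7a (-0.64, adjusted p = 0.0213) and let-7b (-0.62, adjusted p = 0.0213). Scaled by library size alone, chi-let-7a-3p and chi-let-7f-3p were lower in LL than in LG, at -0.0034 and -0.24. chi-let-7b-3p and chi-let-7i-3p stayed higher in LL, at 0.11 and 0.34. The direction thus depends on the scaling for chi-let-7a-3p and chi-let-7f-3p. For chi-let-7b-3p and chi-let-7i-3p the size of the difference does. For let-7a, let-7b and let-7f every LL ratio was below every LG ratio, a pattern shown by 17.1% of all 129 hairpins (10.1% had every LL ratio above every LG ratio).

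**Figure D3:**
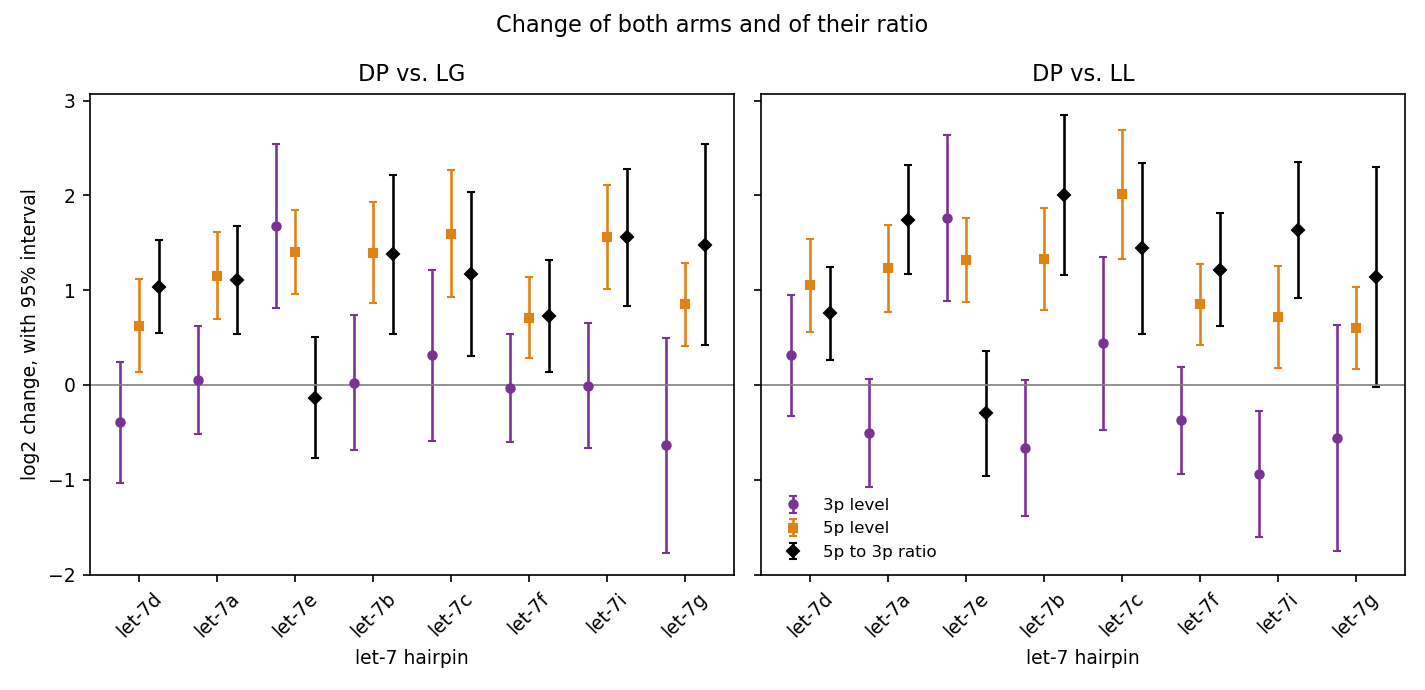
Log2 change between stages of the 3p level, the 5p level and the 5p to 3p ratio of each let-7 hairpin, in DP vs. LG and DP vs. LL, with points for the edgeR estimate and lines for its 95% interval. In DP vs. LG the ratio of let-7i changed by 1.56 and that of let-7e by -0.13.

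An exact permutation test of the ratio over the 3 stages, which uses the libraries of a single hairpin, gave p = 0.00357 for let-7a, let-7b and let-7f, the smallest value that the 1680 assignments of the libraries allow. The exact p was 0.00714 for let-7d, 0.025 for let-7i, 0.0286 for let-7c, 0.114 for let-7g and 0.854 for let-7e. Thus 6 of 8 were below 0.05 before adjustment, against 34.1% of all 129 hairpins. After adjustment over the 129 hairpins, the exact test gave 0.0419 for let-7a, let-7b and let-7f, and 0.0658 or above for the rest, so that 3 of 8 were below 0.05, against 8.53% of all hairpins.

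chi-let-7a-3p had 4.26 to 5.49 times the reads of chi-let-7b-3p in LL, 12.5 times in DP replicate 1, 3.31 and 4.88 times in the other DP libraries and 4.51 to 6.20 times in LG, and the stages overlapped. chi-let-7d-3p had 1.83 to 2.58 times the reads of chi-let-7f-3p in LL, 3.24 to 4.19 times in DP and 4.06 to 5.22 times in LG, so that LL lay below both other stages. On the opposite arm the order of this pair was turned, with 77.8 to 96.1 reads of chi-let-7f-5p per read of chi-let-7d-5p in LL, 56.6 to 89.5 in DP and 62.4 to 75.1 in LG.

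Among the 129 hairpins with both arms measured, 72 had more reads on 5p and 57 more on 3p, and the more abundant arm exceeded the other 14.8-fold in the median. In the order of 5p reads per 3p read, from sums over the 9 libraries with 0.5 added to each arm, let-7g was first, ahead of miR-26a (23151) and miR-21 (18337), and let-7i was the fourth, ahead of miR-100 (9423). let-7f, let-7c, let-7b, let-7a, let-7e and let-7d were at ranks 8, 10, 17, 21, 26 and 48. The sum for let-7g rests on 137 reads of its 3p strand. Ranked within each library, let-7g was first in 9 of 9, let-7i lay at ranks 3 to 5 and let-7d at ranks 46 to 52. Of the other 121 hairpins, 40 lay within the range spanned by let-7d and let-7g and 0 above it.

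The median log2 change of the ratio in DP vs. LG was 1.14 over the 8 let-7 hairpins, 0.083 over the other 64 hairpins with more 5p reads and 0.19 over all 129. In DP vs. LL these medians were 1.33, 0.24 and 0.32, and in LL vs. LG -0.17, 0.048 and -0.037. Among the other 64 hairpins with more 5p reads, 16 were called in DP vs. LG, 13 of them with a higher ratio in DP. The DP ratio was above all LL and LG libraries in 6 of 8 let-7 hairpins and in 19.4% of all hairpins, and it was below them in 0 of 8 and in 7.75%.

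**Figure D4:**
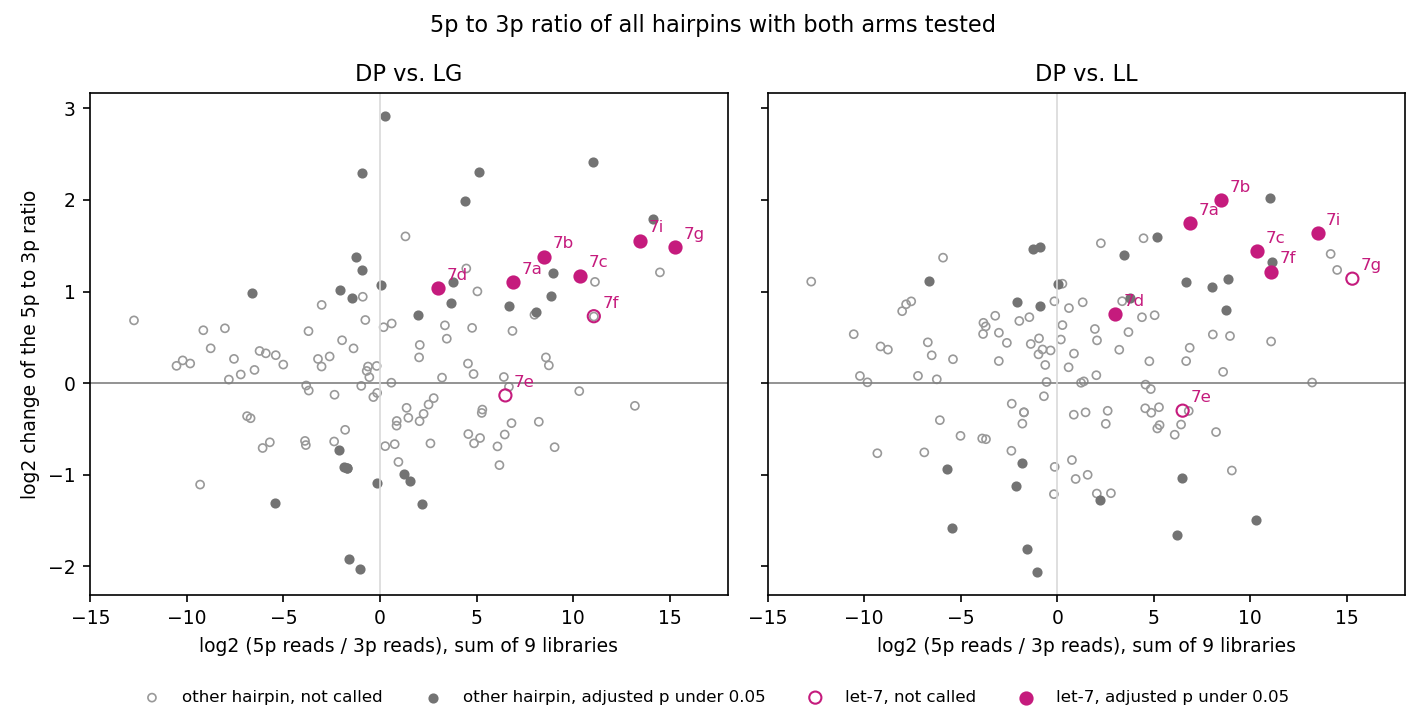
Log2 change of the 5p to 3p ratio against the log2 ratio over the sum of the 9 libraries for the 129 hairpins, in DP vs. LG and DP vs. LL, with let-7 hairpins named and filled symbols for an adjusted p below 0.05. The let-7 hairpins lie on the right, where 5p exceeds 3p, and 6 of 8 are filled in each panel.

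miRNAs linked to let-7 by position or family were compared as a list of 12 strands of miR-98, miR-99a, miR-99b, miR-100, miR-125a and miR-125b. miR-98 belongs to the let-7 family, and the others are encoded beside let-7 hairpins in mammals and include miR-125, which also targets LIN28. Of the 12 strands, 7 were called higher in DP vs. LG, against 21.6% of all miRNAs, and 7 in DP vs. LL, against 15.1%. 0 were called lower, against 9.91% and 11.6% of all miRNAs, and their median log2 fold changes were 1.40 and 1.38. In LL vs. LG, 0 of the 12 were called, against 12.8% of all miRNAs, and the median was 0.081.

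The neighbour of let-7e, miR-99b, had both arms called higher in DP, as let-7e had. chi-miR-99b-5p rose by 1.49 and chi-miR-99b-3p by 1.30 against LG, both rose by 1.41 against LL, and the miR-99b ratio in DP vs. LG was at 0.10, which was not called. The neighbour of let-7c, miR-99a, had a called guide strand, chi-miR-99a-5p at 1.79, and an uncalled passenger strand, chi-miR-99a-3p at 0.70. Its ratio was at 1.11 in DP vs. LG (edgeR adjusted p = 0.0649) and 1.32 in DP vs. LL (edgeR adjusted p = 0.0351).

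Elsewhere in the list the arms also moved apart or together by hairpin. miR-125b had the largest change of ratio of the 6 hairpins, 2.30 in DP vs. LG (edgeR adjusted p = 8.24e-06), with chi-miR-125b-5p at 2.29 and chi-miR-125b-3p at -0.011. miR-100, by contrast, had both arms called higher, at 1.91 and 2.09, and its ratio was at -0.25, not called. The miR-98 ratio was at 0.75 in DP vs. LG (edgeR adjusted p = 0.0795) and 1.05 in DP vs. LL (edgeR adjusted p = 0.0277).

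The miRNA outside the family whose log2 level followed each passenger strand most closely over the 9 libraries was named as a description. It was chi-miR-656 for chi-let-7a-3p (Pearson r = 0.956), chi-miR-2411-3p for chi-let-7c-3p (0.948), chi-miR-93-3p for chi-let-7d-3p (0.897), chi-miR-15a-5p for chi-let-7e-3p (0.966) and chi-miR-197-3p for chi-let-7f-3p (0.902). For chi-let-7b-3p, chi-let-7g-3p and chi-let-7i-3p it was a predicted miRNA with no family name. These are the highest of many correlations over libraries that share stages and scaling.

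Markers of some cell types moved with the stages. For stroma and smooth muscle and for red blood cells the DP sums overlapped with those of both other stages. The 5 epithelial miRNAs tested, all of the miR-200 family, summed to 34893 to 42110 CPM in LL, 13064 to 20811 in DP and 34218 to 37559 in LG, and 5 of 5 were called lower in DP than in LL, against 11.6% of all miRNAs. The 4 immune miRNAs summed to 600 to 814 CPM in LL, 778 to 1968 in DP and 246 to 363 in LG, and the 5 skeletal muscle miRNAs to 673 to 881, 907 to 3404 and 384 to 496. The 8 strands of stroma and smooth muscle summed to 79066 to 126935 CPM in LL, 48542 to 155096 in DP and 58005 to 66273 in LG, and 5 of 8 were called higher in DP than in LG. chi-miR-143-3p, the most abundant of them, was at 0.14 (edgeR adjusted p = 0.832) and not called. The 3 red blood cell miRNAs summed to 364 to 551 CPM in LL, 122 to 1284 in DP and 87.1 to 168 in LG. The 2 endothelial strands summed to 15852.5 to 22980 CPM in LL, 19027.9 to 31975 in DP and 14715.5 to 16362.8 in LG. In DP vs. LG, 3 of 5 epithelial miRNAs were called lower, and 4 of 4 immune, 2 of 5 skeletal muscle, 1 of 3 red blood cell and 1 of 2 endothelial miRNAs higher, against 9.91% of all miRNAs called lower and 21.6% higher. In DP vs. LL, 1 of 4 immune, 1 of 5 skeletal muscle, 0 of 3 red blood cell, 0 of 2 endothelial and 4 of 8 stromal miRNAs were called higher, against 15.1%. In LL vs. LG, 3 of 4 immune and 1 of 8 stromal miRNAs were called higher, against 8.91%. The part of these cell types in the let-7 results was not tested.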

How the data were processed

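Small RNA of 18 to 30 nt was selected on gels, ligated to adapters, amplified by PCR without molecular identifiers and sequenced, 1 library per goat. Ligation efficiency depends on sequence, so levels of different miRNAs, and the absolute size of a 5p to 3p ratio, carry that bias. Per the study's methods, reads were trimmed, mapped to the goat assembly ARS1.2 and assigned to miRBase and predicted miRNAs with miRDeep2. The submitters' processing notes name FastQC 0.11.9, cutadapt 4.2 and Bowtie 1.1.1. The authors deposited raw counts per mature miRNA; in the deposited table LL replicate 3 held 2 values that were not whole (estimated counts), and these were rounded. Reads shared by near-identical let-7 sequences, or by several genomic copies of let-7a and let-7f, could have been split or counted together, and cannot be separated here.

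A miRNA entered the tests when 3 or more libraries held it at 0.5 CPM or above. The tests used edgeR 4.0.16 (R 4.3.3), TMM scaling, stage as the only term and all 9 libraries in each fit, with Benjamini-Hochberg adjustment over 696 miRNAs. The 5p to 3p ratio was tested with edgeR over 129 hairpins, with libraries and the arm within stage as terms. The exact permutation p was adjusted over the 129 hairpins and not, as first planned, over the 8. limma 3.58.1 and DESeq2 1.42.0 were alternatives, as were other scalings and filters and leaving out each library. Scripts were tested on simulated data. Intervals of single counts cover counting error only, and p values rest on 3 goats per stage. Replicate numbers were not used as pairs, because same-numbered libraries of different stages deviated together weakly (correlations of -0.10 to 0.21 for levels and -0.12 to 0.26 for ratios).

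The members, lists and comparisons were chosen with earlier results of these data known. The miRNAs named are the members, their 5p arms, the listed partners and markers, the closest miRNA to each member over the libraries and the hairpins next to the members in the order of ratios. For let-7e no difference from the other hairpins was tested.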

Additional observations from a re-analysis of the deposited data

How the results depend on the processing

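The number of called 3p strands in DP vs. LL was 2 in place of 1 when TMM factors were computed with no chi-miR-148a-3p, when at least 10 counts were required in every library (chi-let-7g-3p then drops out and 7 members are tested) and with no limit on the fold change. In LL vs. LG it was 1 (chi-let-7d-3p) in place of 0 when libraries were scaled by size only and with no filter. For the ratio, fits of only the 2 stages compared called 3 in place of 6 in DP vs. LG, 4 in place of 6 in DP vs. LL and 2 (let-7a and let-7b) in place of 0 in LL vs. LG. Of all 129 hairpins, these fits called 16, 12 and 16, against 36, 31 and 0. The cause was not tested. With limma or DESeq2 the ratio calls were 5, 6 and 0 in DP vs. LG, DP vs. LL and LL vs. LG.

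Leaving out each library in turn, called 3p strands ranged from 0 to 2 in DP vs. LG. There were 0 without DP replicate 1 or LG replicate 3. Without DP replicate 3 there were 2, which adds chi-let-7g-3p, lower in DP. Called 3p strands ranged from 1 to 2 in DP vs. LL (2 without DP replicate 3 or LG replicate 3) and stayed at 0 in LL vs. LG. Called ratios ranged from 2 to 6 in DP vs. LG, from 4 to 7 in DP vs. LL (7 without DP replicate 3, which adds let-7g, at 1.90 with edgeR adjusted p = 0.0279) and stayed at 0 in LL vs. LG. Hairpins with an exact permutation p below 0.05 ranged from 5 to 7.

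The direction of small changes turned. For chi-let-7a-3p in DP vs. LG the log2 fold change was -0.16 with DESeq2 and with its size factors in edgeR, -0.12 with upper-quartile scaling, -0.13 with library size, -0.26 without chi-miR-148a-3p, -0.32 with no filter and with 10 counts in every library, -0.11 with the 2 stages alone, and -0.42 to 0.22 without single libraries. For chi-let-7b-3p in DP vs. LG it was -0.18 with DESeq2 and its size factors, -0.050 with limma-voom, -0.10 with upper quartile, -0.23 with library size, -0.28 without chi-miR-148a-3p, -0.34 with no filter, -0.33 with 10 counts, -0.086 with the 2 stages alone, -0.041 with the replicate block, and -0.35 to 0.045 without single libraries. chi-let-7c-3p in DP vs. LG was at -0.072 with no filter, -0.050 with 10 counts and -0.20 to 0.50 without single libraries, and chi-let-7f-3p at -0.33 to 0.022. In LL vs. LG, library size gave -0.0034 for chi-let-7a-3p and -0.24 for chi-let-7f-3p, and leaving out libraries gave -0.58 to 0.17 for chi-let-7c-3p and -0.34 to 0.052 for chi-let-7g-3p. The ratio of let-7e ranged from -0.38 to 0.25 in DP vs. LG and from -0.54 to 0.083 in DP vs. LL, that of let-7g from -0.092 to 0.59 and that of let-7i from -0.30 to 0.058 in LL vs. LG.

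Library size in place of TMM moved the median of all miRNAs from 0.18 to -0.022 in DP vs. LG, from 0.12 to 0.49 in DP vs. LL and from 0.17 to -0.42 in LL vs. LG. A fit with the replicate block called 1, 1 and 0 3p strands and 6, 6 and 0 ratios in these comparisons, as without the block, and the replicate numbers are only a number. Depth limits chi-let-7g-3p most, with 5 to 44 reads per library.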
